A study of Mus musculus with 96 samples.

Results

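Macrophages treated with Halofuginone were set against macrophages given Torin, both stimulated with lipopolysaccharide (LPS), a bacterial cell wall component. The comparison takes every library whose title names either compound, 8 each, and so 16 of the 96 libraries in the series. Each compound filled wells E to H on plates 1 and 2. The cells were wild-type bone marrow-derived macrophages, grown from male C57BL/6 mice aged 8 weeks in medium conditioned with MCSF, the growth factor that drives macrophage development. Per the labels, cells were pretreated for 30 min and harvested by lysis at the 4 h time point of LPS. The groups were Halofuginone with LPS, Torin with LPS, DMSO (the usual vehicle) with LPS, and NoStim, which had no LPS, with 8 libraries each. Libraries were made from the 3′ ends of transcripts, and each value is a count per gene symbol. No dose is stated, no vehicle is named for the NoStim wells, and neither compound was given without LPS. Whether each well was its own culture is not stated, so p-values measure only the spread between wells, which may be technical. Whether wells of the same letter on both plates share a source is not stated either. Their deviations from the group mean correlated at 0.121, 0.263, -0.0225 and 0.0167 (E to H) in Halofuginone wells and at 0.177, 0.222, 0.369 and 0.237 in Torin wells. If they do, 4 wells a group are independent. With them summed 1846 of 6947 genes tested were called, against 1820 of 4963 with the wells kept apart. Of these calls 1647 were shared.

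Halofuginone blocks the prolyl-tRNA synthetase activity of the enzyme encoded by Eprs, so that tRNA is left without proline. Uncharged tRNA activates the kinase GCN2, which slows the start of translation and favours synthesis of the transcription factor ATF4, whose targets supply amino acids. Torin inhibits the kinase mTOR, which senses nutrients and growth factors. mTOR promotes translation of mRNAs that begin with a terminal oligopyrimidine (TOP) tract, such as those of ribosomal proteins, and it keeps the lysosomal gene activators TFEB and TFE3 out of the nucleus. In macrophages LPS switches on immediate early genes, then cytokine and chemokine genes through NF-kB, and later interferon-response genes.

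The Halofuginone libraries were shallower than the Torin libraries and held more ribosomal RNA. Total counts were 80196 to 136526 in Halofuginone libraries (mean 99978 ± 19032, SD, n = 8), against 148284 to 309247 in Torin libraries (mean 214595 ± 48515, SD, n = 8). The ratio of the means was 0.466 (exact permutation test, two-sided, p = 0.000155, adjusted p = 0.000194 over 5 library measures, and p = 0.000408 with permutation within plates). Rn45s, the ribosomal RNA precursor, took 39.02% to 49.1% of counts in Halofuginone libraries (mean 44.7%), against 15.9% to 29.4% in Torin libraries (mean 21.8%), 19.4% on average in DMSO libraries and 16.9% in NoStim libraries. The groups did not overlap in either measure, and the difference in Rn45s of 22.9 percentage points had the same exact permutation p = 0.000155. Without Rn45s and Lars2, a gene whose share also was higher in Halofuginone libraries, 38719 to 61327 counts were left in Halofuginone libraries and 108146 to 253555 in Torin libraries. After scaling (CPM, counts per 1000000 with TMM scaling), 1 count was therefore worth 11.5 to 17.2 CPM in Halofuginone libraries and 3.10 to 7.10 CPM in Torin libraries, and genes with few counts are seen in coarse steps. In bulk libraries fewer cells and less RNA per cell cannot be told apart, and the part of the ribosomal RNA share in the results was not tested.

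**Figure D1:**
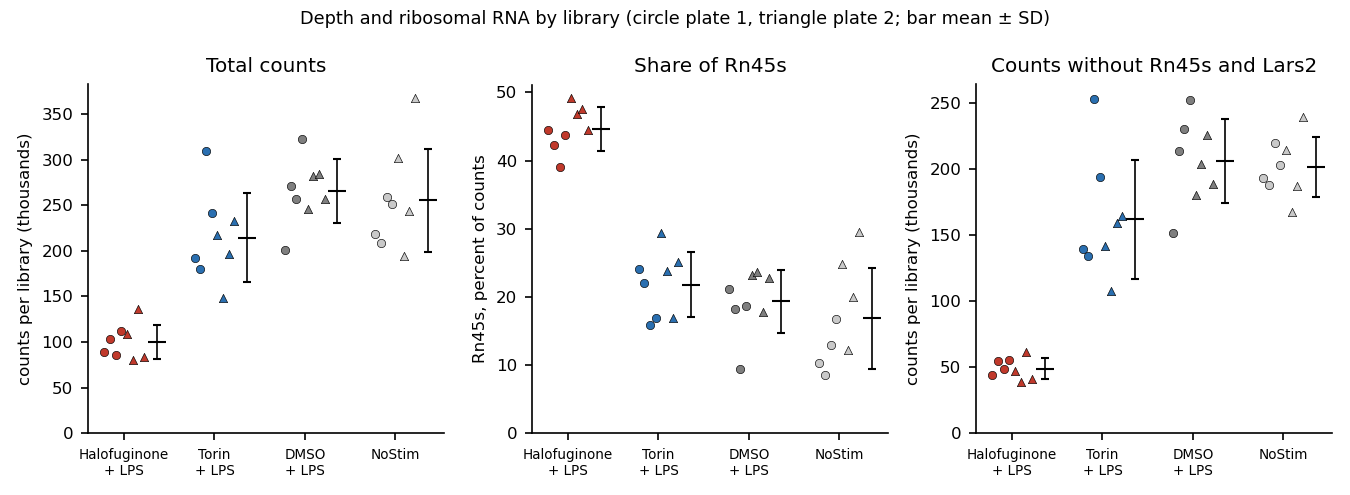
Total counts, percent of counts in Rn45s and counts without Rn45s and Lars2 in each library (points; bars, mean ± SD, n = 8) of Halofuginone, Torin and DMSO wells with LPS and of NoStim wells. All 8 Halofuginone libraries lie at or below 136526 total counts and at or above 39.02% Rn45s, apart from all 8 Torin libraries.

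The cells carried macrophage genes in both groups, and markers of other cell types were close to 0. The 35 listed macrophage identity genes took 1.04% to 1.49% of counts without Rn45s and Lars2 in Halofuginone libraries, against 1.43% to 1.65% in Torin libraries, 1.58% to 1.92% in DMSO libraries and 2.21% to 2.64% in NoStim libraries. 1 of the 35 was at 0 in all Halofuginone libraries. Emr1, which encodes the macrophage surface protein F4/80, had 163 to 289.6 CPM (median 246) in Halofuginone wells, against 184 to 275 CPM (median 247) in Torin wells, and its difference did not pass (log2 fold change -0.05 ± 0.18, adjusted p = 0.875). Neutrophil markers had 1 count over all Halofuginone libraries and 3 over all Torin libraries, B cell markers 0 and 1, and mast cell markers 0 and 0. In the same libraries dendritic cell markers had 7 and 35 counts, mostly of Xcr1 (7 and 33), T and NK cell markers 6 and 20, endothelial markers 6 and 32, fibroblast markers 1 and 3, and erythroid markers 0 and 1. No library stood apart from its label: across 1428 genes, 16 of 16 libraries were closest to the profile of their own compound on the other plate.

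Of 4963 genes tested with edgeR's quasi-likelihood test over all 96 libraries, 1820 (36.7%) differed between Halofuginone and Torin wells at an adjusted p under 0.05. Transcripts of 669 genes (13.5%) were higher and of 1151 (23.2%) lower in Halofuginone wells. By 2-fold or more, 374 were higher and 779 lower, and the median log2 fold change of all genes tested was -0.18. The split moved with level, here in genes with an annotated length outside the ribosomal protein list. Under 30 CPM 22 were higher and 179 lower (median -0.43), and at 30 to 100 CPM 271 and 433 (-0.07). At 100 to 300 CPM 231 were higher and 275 lower (-0.04), and at 1000 CPM or more 23 and 27 (0.03). The part of depth in this was not tested. Fold changes throughout are log2 of Halofuginone over Torin with the standard error (SE) of the fit, unless DMSO is named. In 111 genes (2.24%) every Halofuginone well lay above every Torin well, and in 312 (6.29%) every Halofuginone well lay below. Fitted within plates, 362 genes were higher and 714 lower on plate 1, and 353 higher and 755 lower on plate 2. Of the 1820 genes, 1788 had the same sign on both plates. A term for a difference between plates passed for 0 genes in edgeR's quasi-likelihood test (305 at an unadjusted p under 0.05, and 0 with RLE scaling). Without scaling factors and with Rn45s and Lars2 left out, 845 genes were higher and 947 lower, so that 47.2% of calls were higher in place of 36.8%, and the median of all genes moved to -0.04. With the 16 libraries alone 521 were higher and 468 lower of 1709 genes tested (52.7% of calls higher). With no filter on low counts the split moved the other way, to 477 higher and 1578 lower of 16022 genes tested (23.2% of calls higher). The median there was -0.06, but over these 16022 genes and so over another set than the -0.18. With a filter at 20 CPM there were 603 higher and 1253 lower.

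**Figure D2:**
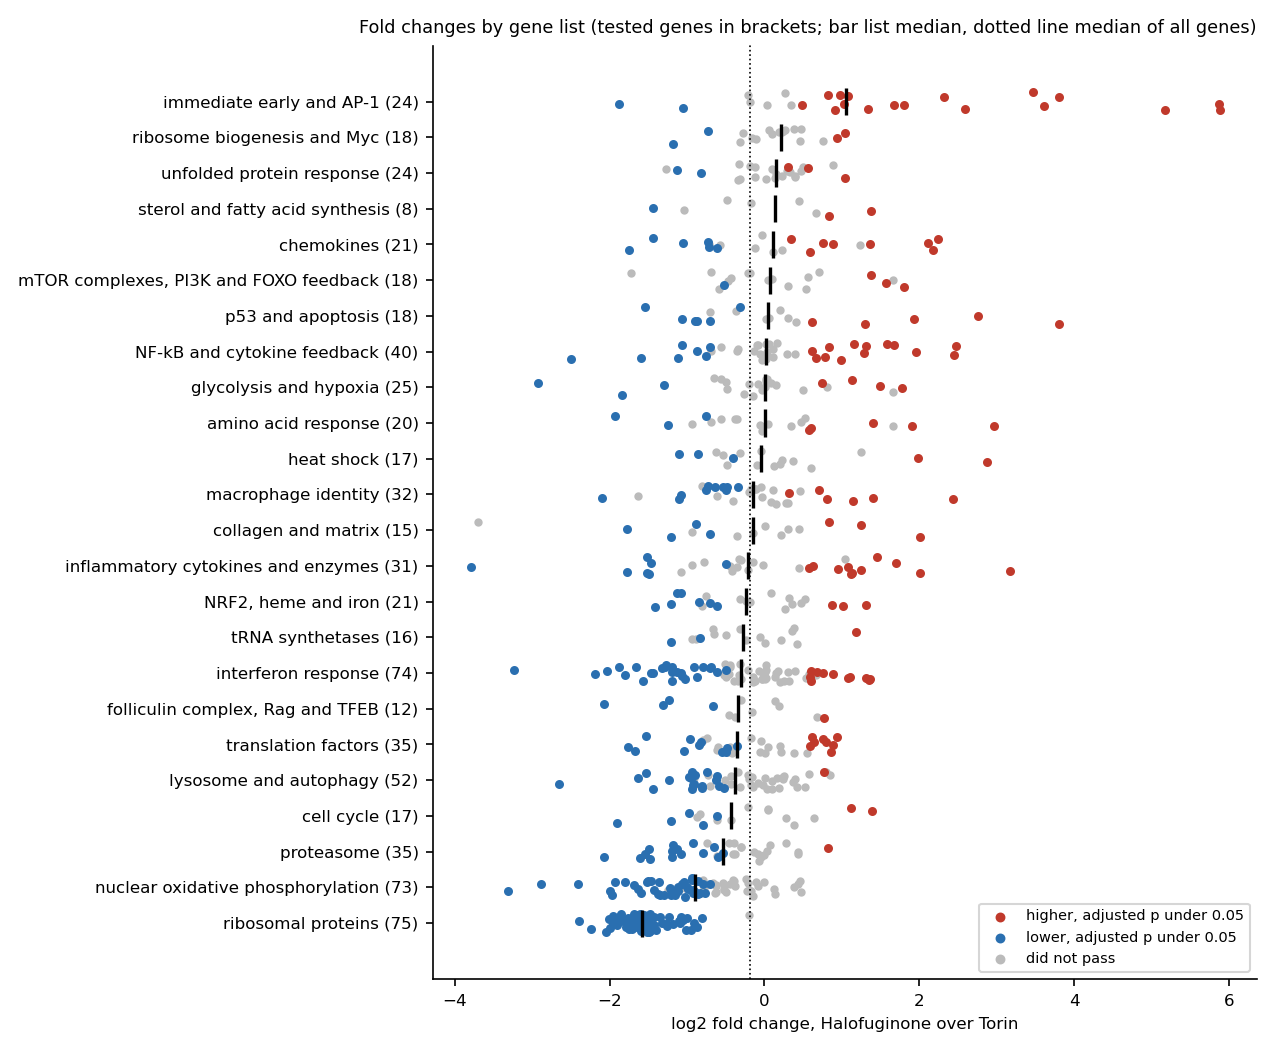
Log2 fold change (Halofuginone over Torin) of each tested gene in lists with 8 or more tested genes, ordered by median (black bars). Ribosomal protein genes lie lowest (74 of 75 lower, against 23.2% of all genes) and immediate early and AP-1 genes highest (17 of 24 higher, against 13.5%).

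Immediate early genes, whose short-lived transcripts encode transcription factors and regulators made within minutes of a stimulus, were the list that stood highest. Of 24 tested members 17 were higher in Halofuginone wells (70.8%, against 13.5% of all genes) and 2 lower (8.33%, against 23.2% of all genes). Their median was 1.05, which is 1.23 above the median of all genes. In 11 of them all Halofuginone wells lay above all Torin wells, which held for 2.24% of all genes. Summed over the 33 listed genes, they took 1.503% to 2.75% of counts without Rn45s and Lars2 in Halofuginone libraries and 0.801% to 1.01% in Torin libraries, against 0.444% to 0.516% in DMSO and 0.539% to 0.598% in NoStim libraries.

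Ier2, an immediate early nuclear protein gene on chromosome 8 (84661331 to 84662852 of mm10, GENCODE annotation), had 371 to 936 CPM (median 414) in Halofuginone wells, against 0 to 24.98 CPM (median 6.24) in Torin wells. No Halofuginone well came near a Torin well, and the fold change was the highest of all genes tested (log2 fold change 5.88 ± 0.33, adjusted p = 1.35e-34), with 6.62 on plate 1 alone and 5.13 on plate 2 alone. Egr1, a zinc finger transcription factor of the first minutes of stimulation, had 629.9 to 2402 CPM (median 1168) in Halofuginone wells, against 10.99 to 45.3 CPM (median 20.8) in Torin wells. Again the groups lay far apart (log2 fold change 5.87 ± 0.35, adjusted p = 9.59e-26, and 5.25 on plate 2 alone). Jun, a subunit of the transcription factor AP-1, had 659 to 1856 CPM (median 1031) in Halofuginone wells, against 48.5 to 177 CPM (median 93.4) in Torin wells. All Halofuginone wells were above all Torin wells (log2 fold change 3.47 ± 0.24, adjusted p = 2.21e-22). Its AP-1 partner Fos had 299 to 608 CPM (median 471) in Halofuginone wells, against 24.1 to 50.97 CPM (median 39.2) in Torin wells (log2 fold change 3.60 ± 0.29, adjusted p = 5.76e-19). Junb (1.34 ± 0.11) and Jund (1.81 ± 0.23), further AP-1 subunits, were higher without overlap of the wells.

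The orphan nuclear receptor gene Nr4a1 had 34.1 to 319.8 CPM (median 198) in Halofuginone wells, against 0 to 10.8 CPM (median 2.35) in Torin wells (log2 fold change 5.17 ± 0.48, adjusted p = 3.23e-18, and 6.05 with all libraries thinned to one depth). Btg2, which slows cell division, and Phlda1 had log2 fold changes of 3.80 ± 0.33 and 3.80 ± 0.27, both without overlap (3.16 for Phlda1 when thinned). Id3, an inhibitor of helix-loop-helix transcription factors, was higher without overlap (2.59 ± 0.24), but its relative Id2 was lower. Id2 had 860.0 to 1334 CPM (median 962) in Halofuginone wells, against 1921 to 2675 CPM (median 2049) in Torin wells (log2 fold change -1.06 ± 0.12, adjusted p = 3.66e-14). Klf4, a transcription factor of macrophage polarisation, had 114 to 241 CPM (median 142) in Halofuginone wells, against 34.1 to 89.2 CPM (median 50.98) in Torin wells (log2 fold change 1.68 ± 0.24, adjusted p = 3.64e-09). Atf3, a stress-induced repressor of cytokine genes, had 264 to 936 CPM (median 474) in Halofuginone wells, against 351 to 450.5 CPM (median 394) in Torin wells, and the difference did not pass (log2 fold change 0.34 ± 0.15, adjusted p = 0.0749). It passed with RLE scaling (0.40, adjusted p = 0.0389) and without any 1 of Halofuginone plate 1 E, plate 1 F or plate 2 E or Torin plate 1 H, plate 2 E or plate 2 F (0.38 to 0.44). Outside the list, Hexim1, an inhibitor of the elongation factor P-TEFb, was higher without overlap (2.79 ± 0.27).

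Against the 8 DMSO wells, which both compounds share as reference, the compounds stood apart from DMSO in different numbers of genes. In Halofuginone wells 760 genes (15.3%) were higher and 1240 (25%) lower than in DMSO wells, and in Torin wells 477 (9.61%) were higher and 353 (7.11%) lower. Of the 24 immediate early genes 21 were higher and 1 lower in Halofuginone than in DMSO wells, and 13 higher and 0 lower in Torin than in DMSO wells, with medians of 1.92 and 0.61. For Jun the log2 fold change over DMSO was 4.45 ± 0.26 in Halofuginone wells and 0.98 ± 0.30 in Torin wells. For Id2 it was 1.08 ± 0.12 in Halofuginone wells and 2.14 ± 0.11 in Torin wells. Fos had a median of 30.3 CPM in DMSO wells and 272 CPM in NoStim wells, and Id3 72.4 CPM in DMSO wells and 422 CPM in NoStim wells.

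**Figure D3:**
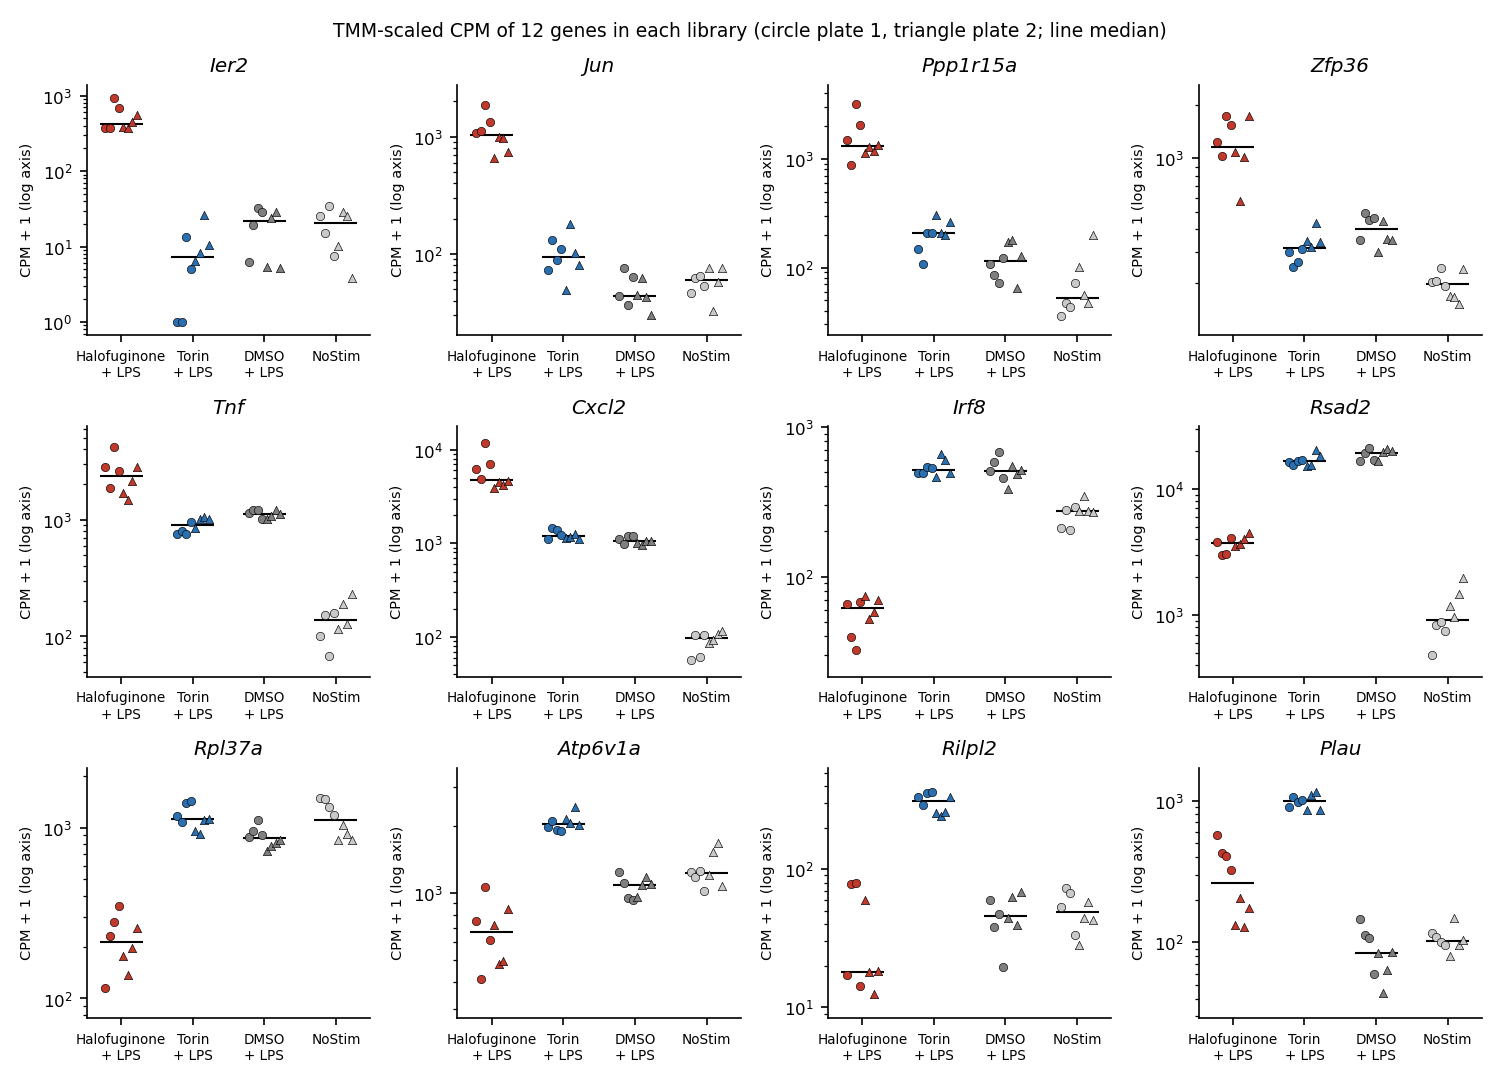
TMM-scaled CPM plus 1 (log axis) of 12 genes in each library of Halofuginone, Torin and DMSO wells with LPS and of NoStim wells; lines are medians of 8 wells. Ier2, Jun, Ppp1r15a, Zfp36, Tnf and Cxcl2 lie higher in all Halofuginone than in all Torin wells, and Irf8, Rsad2, Rpl37a, Atp6v1a, Rilpl2 and Plau lower.

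Ribosomal protein transcripts were lower in Halofuginone wells almost throughout. These genes encode the structural proteins of both ribosomal subunits, and their mRNAs are the best-known TOP mRNAs. The first bases of 7 of them, each written 5′ to 3′ from 15 bases before the annotated start, are given with the match nearest the start, a C and the pyrimidines that follow it, in capitals. In the first 6 the capitals begin at the annotated start, with further pyrimidines directly before them, and in Rpl4, whose fold change did not pass, the match begins upstream of the start. Sequences are from RefSeq promoter windows of build GRCm38.p6, of which mm10 is an equivalent.
Rps15a: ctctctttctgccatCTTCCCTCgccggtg
Rps10: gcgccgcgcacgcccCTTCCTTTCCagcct
Rpl15: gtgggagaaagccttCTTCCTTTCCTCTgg
Rpl38: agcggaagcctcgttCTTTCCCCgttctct
Rps6: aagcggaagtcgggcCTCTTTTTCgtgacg
Rpl28: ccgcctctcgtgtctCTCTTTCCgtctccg
Rpl4: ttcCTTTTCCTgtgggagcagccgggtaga
Rps15a lies at chr7:118116133-118116162 (minus strand), Rps10 at chr17:27635230-27635259 (minus strand), Rpl15 at chr14:18270972-18271001 (minus strand) and Rpl38 at chr11:114668565-114668594 (plus strand). Rps6 lies at chr4:86857353-86857382 (minus strand), Rpl28 at chr7:4792950-4792979 (plus strand) and Rpl4 at chr9:64173372-64173401 (plus strand). Windows were held for 3778 of the 4963 tested genes. A C followed by 5 or more pyrimidines, starting at most 5 bases from the annotated start on the sense strand, was in 25 of 55 ribosomal protein windows (45.5%) and in 508 of all 3778 (13.4%). This definition was chosen after the windows were read. The 25 ribosomal protein genes with such a tract had a median fold change of -1.63, and the 30 without had one of -1.54. A match describes these letters at an annotated start and not a measured start of transcription.

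Of 75 tested ribosomal protein genes 0 were higher and 74 lower (98.7%, against 23.2% of all genes). Their median was -1.58, 1.40 below the median of all genes. In 63 of them every Halofuginone well lay below every Torin well, which held for 6.29% of all genes. Together they took 1.99% to 3.02% of counts without Rn45s and Lars2 in Halofuginone libraries (median 2.40%), against 5.70% to 7.68% in Torin libraries (median 6.52%), 4.90% to 6.36% in DMSO libraries and 5.52% to 8.97% in NoStim libraries. Rpl37a had 114 to 346 CPM (median 213) in Halofuginone wells, against 915 to 1439.9 CPM (median 1121) in Torin wells. The groups lay far apart (log2 fold change -2.40 ± 0.14, adjusted p = 1.90e-32). Rps15a had 17.04 to 86.00 CPM (median 52.7) in Halofuginone wells, against 162 to 354 CPM (median 252) in Torin wells (log2 fold change -2.24 ± 0.23, adjusted p = 2.33e-15). Rpl41 (-2.05 ± 0.13), Rpl32 (-2.01 ± 0.18) and Rps20 (-1.96 ± 0.17) followed, all without overlap. Rpl4 had 276 to 813 CPM (median 452) in Halofuginone wells, against 461 to 709 CPM (median 627) in Torin wells, and its wells overlapped (log2 fold change -0.20 ± 0.13, adjusted p = 0.197). It passed without Halofuginone plate 1 H (-0.33, adjusted p = 0.0347). Ribosomal protein genes have many near-identical pseudogene copies, so that single values depend on how reads were assigned, which is not given in the sources used here. Over DMSO, 0 of the 75 were higher and 73 lower in Halofuginone wells, and 18 higher and 0 lower in Torin wells, with medians of -1.37 and 0.19. The count of 74 stayed between 73 and 75 under every alternative scaling, filter, plate and library left out.

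Translation factor genes, which load and move the ribosome, had members in both directions. Of 35 tested 8 were higher (22.9%, against 13.5% of all genes) and 11 lower (31.4%, against 23.2% of all genes), with a median of -0.36. Without Halofuginone plate 1 F or plate 2 G, 5 were higher, and on plates 1 and 2 alone 3 and 4. Summed over the list they took 1.70% to 2.86% of counts without Rn45s and Lars2 in Halofuginone libraries (median 2.36%), against 1.73% to 2.04% in Torin libraries (median 1.88%). Subunits of the initiation factor eIF3 were among the lowest: Eif3f had 12.8 to 87.9 CPM (median 40.6) in Halofuginone wells, against 91.5 to 169 CPM (median 128) in Torin wells without overlap (log2 fold change -1.53 ± 0.27, adjusted p = 8.05e-07), and Eif3h was at -1.76 ± 0.28. Pabpc1, the poly(A)-binding protein gene and a known TOP mRNA, had 469 to 1026 CPM (median 744) in Halofuginone wells, against 1267 to 1564 CPM (median 1363) in Torin wells (log2 fold change -0.96 ± 0.11, adjusted p = 3.66e-14). The elongation factor gene Eef1a1, also a known TOP mRNA, had 1073 to 1945 CPM (median 1539) in Halofuginone wells, against 1404 to 1967 CPM (median 1552) in Torin wells, and the wells overlapped (log2 fold change -0.04 ± 0.10, adjusted p = 0.781). Eif4a1, the helicase of the cap-binding complex, had 1040.1 to 1981 CPM (median 1191) in Halofuginone wells, against 617 to 1129 CPM (median 900.2) in Torin wells (log2 fold change 0.59 ± 0.11, adjusted p = 4.38e-06), not past the threshold on plate 2 alone (0.35, adjusted p = 0.0727) or with no filter on low counts (0.31, adjusted p = 0.0814). Among genes of ribosome biogenesis 2 were higher and 2 lower of 18 (11.1% each), and Nop58, a nucleolar protein of ribosomal RNA modification, was higher without overlap (1.04 ± 0.21).

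Genes of the mitochondrial chain and of the proteasome were lower or did not pass, with 1 exception. Of 73 nuclear genes of oxidative phosphorylation, which makes ATP in mitochondria, 0 were higher and 41 lower (56.2%, against 23.2% of all genes). Their median was -0.90, with 20 lower on plate 1 alone, 22 on plate 2 alone and 25 when thinned. The median length of these transcripts was 782 bases. In 271 genes of 500 to 1000 bases outside the ribosomal, oxidative phosphorylation and proteasome lists the median was -0.66. The part of length was not tested. Uqcrh, a subunit of complex III, had 0 to 86.00 CPM (median 29.1) in Halofuginone wells, against 56.6 to 184 CPM (median 143) in Torin wells, with overlap (log2 fold change -1.99 ± 0.34, adjusted p = 5.76e-07). Of 35 proteasome genes 1 was higher (2.86%) and 15 lower (42.9%), with a median of -0.54 and 9 lower on plate 2 alone. Psma7, a core subunit, had 12.8 to 126 CPM (median 89.4) in Halofuginone wells, against 150.3 to 273 CPM (median 185) in Torin wells without overlap (log2 fold change -1.47 ± 0.23, adjusted p = 2.02e-08), and Psmb7 was the member that was higher (0.83 ± 0.24), though not past the threshold on plate 2 alone (0.63, adjusted p = 0.167) or with no filter (0.54, adjusted p = 0.108). In Halofuginone wells set against DMSO the medians of these lists were -1.27 and -1.04, and in Torin wells set against DMSO they were -0.44 and -0.31.

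Fold changes moved with annotated transcript length. The length is 1 annotated value per gene and was not measured in these cells. Among ribosomal protein genes, Rps15a stood at 5130 bases and Rps20 at 3706. Outside the ribosomal protein list the median was higher in each longer bin, with -0.88 in transcripts under 500 bases (47 genes) and -0.70 in those of 500 to 1000 bases (317 genes) at the short end and 0.11 in those of 6000 bases or more (615 genes). Ribosomal protein genes lay below these medians in the same bins, at -1.78 under 500 bases (10 genes), -1.59 at 500 to 1000 bases (43 genes) and -1.48 at 1000 to 2000 bases (18 genes). The median length was 780 bases for ribosomal protein genes and 782 for oxidative phosphorylation genes, against 2993 for all 4743 tested genes with a length in the GENCODE annotation. Noncoding RNAs other than Rn45s stood in both directions. Rpph1, the RNA of ribonuclease P, had 749 to 2285 CPM (median 1069.6) in Halofuginone wells, against 221 to 614 CPM (median 343) in Torin wells (log2 fold change 1.70 ± 0.28, adjusted p = 5.14e-07), and the nuclear RNA Malat1 had 8909.7 to 12649 CPM (median 10469) in Halofuginone wells, against 4259.6 to 8105 CPM (median 4875) in Torin wells (log2 fold change 0.96 ± 0.24, adjusted p = 8.74e-04), not past the threshold on plate 1 alone (0.85, adjusted p = 0.0749). The microRNA locus Mir682 was lower, with 1 count over all Halofuginone libraries and 67 over all Torin libraries. At equal scaled depth this is a ratio of 0.0452 with a 95% counting interval of 0.00113 to 0.261, and without Halofuginone plate 1 E the Halofuginone libraries had none. Mir703 was also lower (log2 fold change -2.19 ± 0.58, adjusted p = 0.00126), but not past the threshold on plate 2 alone (-0.68, adjusted p = 0.551), and so was the microRNA host gene Mir22hg (log2 fold change -0.93 ± 0.31, adjusted p = 0.0115), but not on plate 1 alone (-0.69, adjusted p = 0.172). The part of length, ribosomal RNA and depth in the fold changes of the short transcripts was not tested.

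**Figure D4:**
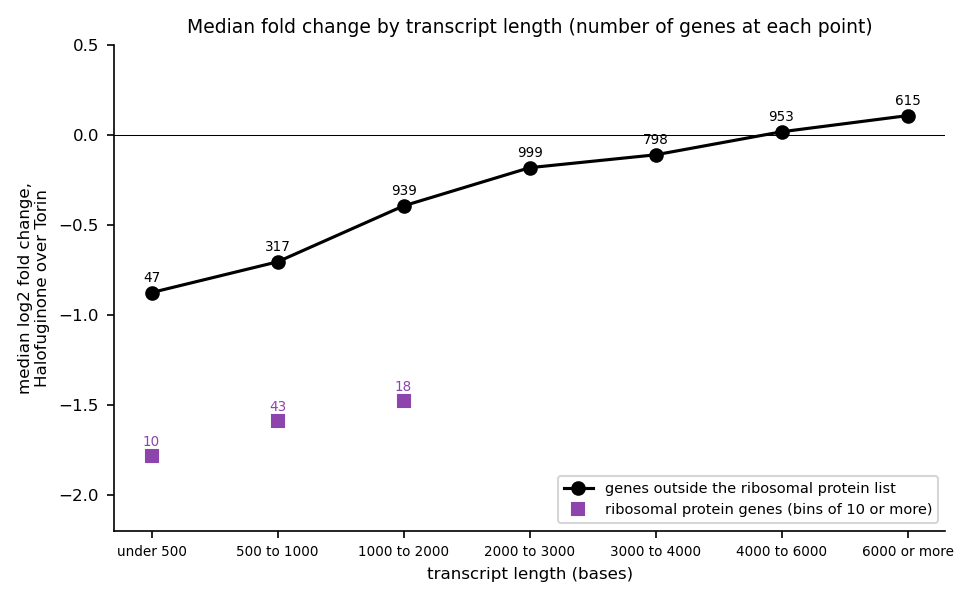
Median log2 fold change (Halofuginone over Torin) of tested genes by annotated transcript length in bases, for genes outside the ribosomal protein list (circles) and for ribosomal protein genes in bins of 10 or more (squares), with the number of genes at each point. Medians outside the list rise from -0.88 to 0.11 with length, and ribosomal protein genes lie lower at each of their 3 points.

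Many genes of the lysosome and of the folliculin complex are known targets of TFEB and TFE3. In Halofuginone wells 19 of 52 tested genes of the lysosome list were lower than in Torin wells. The core of the TFEB and TFE3 element is the E-box CACGTG, which Myc and other factors also bind. It is shown in capitals in the windows of 3 genes that carry it, Fnip1 at chr11:54438092-54438121 (plus strand), Atp6v1a at chr16:44139373-44139402 (minus strand) and Ctsl at chr13:64370739-64370768 (minus strand).
Fnip1: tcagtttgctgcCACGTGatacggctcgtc
Atp6v1a: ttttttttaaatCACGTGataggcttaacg
Ctsl: ggcgttagaagcCACGTGctgatctaaatt
CACGTG, which reads the same on both strands, was in 13 of 40 windows of lysosome and autophagy genes (32.5%) and 4 of 11 of the folliculin, Rag and TFEB list (36.4%), against 489 of all 3778 (12.9%). Other lists had like shares, with 9 of 27 for translation factors (33.3%) and 3 of 10 for tRNA synthetases (30%). Among genes higher by 2-fold or more it was in 27 of 280 (9.64%), and among those lower by 2-fold or more in 78 of 569 (13.7%). It describes the window and not a bound factor.

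Of 52 lysosome and autophagy genes 1 was higher (1.92%) and 19 lower (36.5%, against 23.2% of all genes), with a median of -0.38. From 2 to 5 were higher under most other scalings and with most single libraries left out. Of 12 genes of the folliculin, Rag and TFEB list 1 was higher (8.33%) and 4 lower (33.3%), with a median of -0.34. Single libraries decided these last counts. Without Halofuginone plate 2 E or F 1 was lower, as on plate 1 alone, and without any 1 of Halofuginone plate 1 E, 1 F, 2 G or 2 H or Torin plate 2 G or 2 H 2 were lower. Without Halofuginone plate 1 G or 2 H 0 were higher. Atp6v1a, a subunit of the proton pump that acidifies lysosomes, had 409.7 to 1061 CPM (median 665) in Halofuginone wells, against 1906 to 2438 CPM (median 2033) in Torin wells. The groups did not overlap (log2 fold change -1.64 ± 0.12, adjusted p = 7.91e-26), and the value over DMSO was -0.68 ± 0.12 in Halofuginone wells and 0.95 ± 0.10 in Torin wells. Ctsl, the lysosomal protease cathepsin L, had 409 to 577 CPM (median 472) in Halofuginone wells, against 878 to 1274 CPM (median 1174) in Torin wells (log2 fold change -1.24 ± 0.13, adjusted p = 3.80e-15). Npc2, which carries cholesterol out of lysosomes, had 155 to 407 CPM (median 302) in Halofuginone wells, against 679.6 to 965 CPM (median 786) in Torin wells (log2 fold change -1.44 ± 0.13, adjusted p = 1.06e-18). Both were without overlap, and Map1lc3b, the autophagosome protein LC3B, was lower with a slight overlap (-1.53 ± 0.26). Lamp1, a lysosomal membrane protein, did not pass (log2 fold change -0.20 ± 0.13, adjusted p = 0.242).

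Fnip2, a partner of folliculin, had 102 to 267 CPM (median 162) in Halofuginone wells, against 352 to 545 CPM (median 447) in Torin wells, without overlap (log2 fold change -1.31 ± 0.18, adjusted p = 2.18e-10). Over DMSO its log2 fold change was 0.88 ± 0.20 in Halofuginone wells and 2.19 ± 0.15 in Torin wells. Fnip1 was lower as well (log2 fold change -0.67 ± 0.23, adjusted p = 0.0153), but the call rests on plate 2 (-1.76, adjusted p = 2.12e-04 on plate 2 alone and -0.09, adjusted p = 0.841 on plate 1 alone). It was also lost without any 1 of Halofuginone plate 2 E, F or H or Torin plate 2 G (-0.53 to -0.56). Flcn, the folliculin gene itself, had 0 to 62.4 CPM (median 32.5) in Halofuginone wells, against 10.99 to 49.6 CPM (median 26.7) in Torin wells and did not pass (log2 fold change 0.13 ± 0.45, adjusted p = 0.863). Its values over DMSO were 1.93 ± 0.54 in Halofuginone wells and 1.80 ± 0.42 in Torin wells.

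Large negative fold changes were also seen in genes of other functions. Rilpl2, which acts in cilium transport, had 11.5 to 77.98 CPM (median 17.1) in Halofuginone wells, against 241 to 362 CPM (median 309) in Torin wells. Every Torin well was far above the Halofuginone wells (log2 fold change -3.06 ± 0.28, adjusted p = 2.02e-18). Ndrg1, a gene of hypoxia and growth arrest, had 0 to 80.4 CPM (median 41.2) in Halofuginone wells, against 269.8 to 406 CPM (median 335) in Torin wells (log2 fold change -2.93 ± 0.28, adjusted p = 2.98e-17). Hbp1, a repressor of cell cycle genes, had 0 to 31.2 CPM (median 13.1) in Halofuginone wells, against 93.9 to 195 CPM (median 117) in Torin wells, with 6 counts over all Halofuginone libraries and 231 over all Torin libraries (log2 fold change -3.58 ± 0.43, adjusted p = 1.62e-12). Il17ra, a receptor of the cytokine interleukin 17, had 22.97 to 103 CPM (median 52.7) in Halofuginone wells, against 408 to 571 CPM (median 451) in Torin wells (log2 fold change -3.19 ± 0.25, adjusted p = 1.79e-23). Plau, the urokinase protease, had 126 to 569 CPM (median 262) in Halofuginone wells, against 856 to 1139 CPM (median 991) in Torin wells without overlap (log2 fold change -1.78 ± 0.22, adjusted p = 2.90e-11, and -2.65 on plate 2 alone). Insig1, which holds back sterol synthesis, was lower without overlap (-1.44 ± 0.19).

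The values of these genes over the shared DMSO wells were as follows. Ndrg1 was at -0.98 ± 0.33 in Halofuginone wells and 1.95 ± 0.19 in Torin wells, and Rilpl2 at -0.31 ± 0.36 in Halofuginone wells and 2.74 ± 0.20 in Torin wells. Plau was at 1.76 ± 0.26 in Halofuginone wells and 3.54 ± 0.21 in Torin wells, and Insig1 at 0.83 ± 0.22 in Halofuginone wells and 2.27 ± 0.17 in Torin wells. Ppargc1b, a coactivator of mitochondrial genes, had 1 count over all Halofuginone libraries and 146 over all Torin libraries. At equal scaled depth this is a ratio of 0.0208, with a 95% counting interval of 0.000522 to 0.117. Without Halofuginone plate 1 F, which held that count, the Halofuginone libraries had none.

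**Figure D5:**
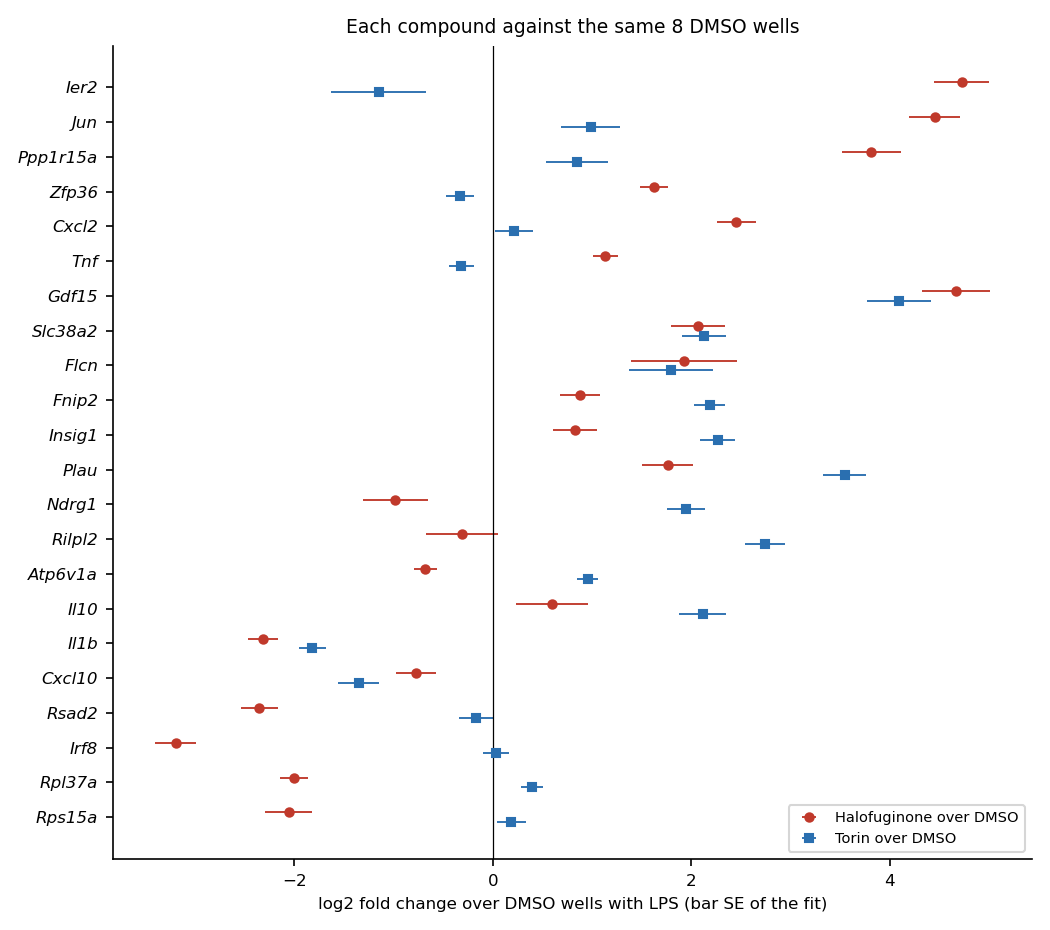
Log2 fold change over the same 8 DMSO wells with LPS (bars, SE of the fit) of 22 genes in Halofuginone wells (circles) and Torin wells (squares). Ier2 lies at 4.73 in Halofuginone wells and -1.15 in Torin wells, and Rilpl2 at -0.31 in Halofuginone wells and 2.74 in Torin wells.

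Genes of the amino acid response, known targets of ATF4 and their regulators, moved in both directions between the compounds. Of 20 tested members 5 were higher (25%, against 13.5% of all genes) and 3 lower (15%, against 23.2% of all genes), with a median of 0.00. Without Halofuginone plate 1 G 3 were higher, as on each plate alone. Summed over the 40 listed genes in the table, they took 0.377% to 0.813% of counts without Rn45s and Lars2 in Halofuginone libraries (median 0.473%), against 0.232% to 0.305% in Torin libraries (median 0.285%), 0.164% to 0.212% in DMSO libraries and 0.142% to 0.170% in NoStim libraries. The Halofuginone and Torin libraries did not overlap in this sum. It is weighted by counts and does not describe each member. Of the 20 tested members only 1, Ppp1r15a, was higher without overlap of the wells, and 0 were lower without overlap. Over all genes these shares were 2.24% and 6.29%. Ppp1r15a, which encodes GADD34, the phosphatase subunit that reverses eIF2 phosphorylation, had 884 to 3213 CPM (median 1309.6) in Halofuginone wells, against 108 to 302 CPM (median 205) in Torin wells. All Halofuginone wells lay above all Torin wells (log2 fold change 2.97 ± 0.28, adjusted p = 3.80e-15), with 2.34 on plate 2 alone. Ddit3, the stress transcription factor CHOP, had 11.5 to 125 CPM (median 66.2) in Halofuginone wells, against 5.38 to 22.7 CPM (median 18.2) in Torin wells, with overlap (log2 fold change 1.91 ± 0.39, adjusted p = 3.07e-05). Psat1, an enzyme of serine synthesis, was higher too (log2 fold change 1.40 ± 0.44, adjusted p = 0.00697), but not on plate 1 alone (1.10, adjusted p = 0.178). Atf4 itself had 117 to 437 CPM (median 223) in Halofuginone wells, against 113 to 181 CPM (median 159) in Torin wells (log2 fold change 0.60 ± 0.19, adjusted p = 0.00918). That call was lost without Halofuginone plate 1 G (0.45, adjusted p = 0.0733), with no filter on low counts (0.32, adjusted p = 0.345) and on each plate alone. Gdf15, a stress-induced cytokine, had 119 to 413 CPM (median 162) in Halofuginone wells, against 109.9 to 179.8 CPM (median 153) in Torin wells, and the wells overlapped (log2 fold change 0.58 ± 0.23, adjusted p = 0.0430). That call was lost on each plate alone, and without any 1 of Halofuginone plate 1 F, plate 1 G or plate 2 H or Torin plate 1 E, F or G (0.40 to 0.58). It was also lost with no filter (0.29, adjusted p = 0.506), with a filter at 20 CPM (0.51, adjusted p = 0.0725) and with same-named wells of both plates summed (0.56, adjusted p = 0.0776). Over DMSO it was at 4.67 ± 0.34 in Halofuginone wells and 4.09 ± 0.32 in Torin wells.

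Asns, the asparagine synthetase, had 10 counts over all Halofuginone libraries and 21 over all Torin libraries, and the difference was not detectable at this depth (log2 fold change 0.52 ± 0.63, adjusted p = 0.557). Cebpg, a partner of ATF4, was lower with overlap (log2 fold change -1.25 ± 0.36, adjusted p = 0.00362), but not on plate 2 alone (-0.73, adjusted p = 0.267). Slc38a2, a transporter of neutral amino acids, had 80.4 to 275 CPM (median 138) in Halofuginone wells, against 122 to 189.8 CPM (median 152) in Torin wells, and the wells overlapped (log2 fold change -0.06 ± 0.23, adjusted p = 0.877). Its values over DMSO were 2.07 ± 0.27 in Halofuginone wells and 2.13 ± 0.22 in Torin wells. Of 20 list members 9 were higher and 3 lower in Halofuginone than in DMSO wells, and 8 higher and 1 lower in Torin than in DMSO wells. Eprs, which encodes the enzyme that Halofuginone binds, did not pass (log2 fold change 0.21 ± 0.20, adjusted p = 0.435). Over all genes 13.5% were higher and 23.2% lower. Of 16 tRNA synthetase genes, which charge tRNA with amino acids, 1 was higher (6.25%) and 2 lower (12.5%). None was higher without Halofuginone plate 1 G or 1 H, 0 were lower without Halofuginone plate 2 G, and 1 was lower without any 1 of Halofuginone plate 1 E, 1 F or 2 F or Torin plate 1 G, 2 F or 2 H. Of 24 genes of the unfolded protein response 3 were higher (12.5%) and 2 lower (8.33%). Of these, 1 was lower without any 1 of Halofuginone plate 1 F, 2 E, 2 F or 2 G or Torin plate 1 G, 2 E or 2 H. The highest of this list was Sdf2l1, an endoplasmic reticulum chaperone cofactor (1.04 ± 0.25), not past the threshold on plate 2 alone (0.82, adjusted p = 0.126).

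Several of these promoters carry elements of ATF and CREB factors. Ppp1r15a at chr7:45526262-45526291 (minus strand) and Btg2 at chr1:134079303-134079332 (minus strand) hold the full cyclic AMP response element, TGACGTCA, shown in capitals.
Ppp1r15a: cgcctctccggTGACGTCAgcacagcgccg
Btg2: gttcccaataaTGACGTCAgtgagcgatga
It reads the same on both strands and was in 152 of 3778 windows (4.02%), in 23 of 280 of the genes higher by 2-fold or more (8.21%) and in 25 of 569 of those lower by 2-fold or more (4.39%). In the amino acid response list it was in 1 of 19 (5.26%). The composite element of C/EBP and ATF4, searched as TGATGNAA on both strands, was in 114 of 3778 windows (3.02%) and in 6 of 19 of the amino acid response list (31.6%). The tRNA synthetase list, with 1 gene higher and 2 lower, held it in 4 of 10 windows (40%). The p53 and apoptosis list held it in 2 of 15 (13.3%), and the ribosomal protein list in 0 of 55. Among genes higher by 2-fold or more it was in 4 of 280 (1.43%), and among those lower by 2-fold or more in 17 of 569 (2.99%). The composite element is shown in capitals for Asns at chr6:7693214-7693243 (minus strand), Atf3 at chr1:191183425-191183454 (minus strand), where it lies on the opposite strand, and Pycr1 at chr11:120643833-120643862 (minus strand).
Asns: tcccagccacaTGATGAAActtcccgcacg
Atf3: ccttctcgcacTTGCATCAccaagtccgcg
Pycr1: tgccctgtgtaTGATGCAAtgcacaaggct
Of these 3 genes Asns and Atf3 did not pass, and Pycr1, an enzyme of proline synthesis, was lower with overlap (log2 fold change -1.93 ± 0.64, adjusted p = 0.0109, 4 counts over all Halofuginone libraries and 48 over all Torin libraries). It was -2.66 without Halofuginone plate 1 F. The call was lost when all libraries were thinned to one depth (-1.29, adjusted p = 0.331). A match describes the letters only.

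The response to LPS was taken from DMSO and NoStim wells, which are neither side of the comparison of compounds. By adjusted p under 0.05 and 2-fold, 532 genes (10.7%) were raised by LPS and 278 (5.6%) lowered. Of the LPS-raised genes 84 were higher (15.8%, against 13.5% of all genes) and 183 lower (34.4%, against 23.2% of all genes) in Halofuginone than in Torin wells, with a median of -0.31, against -0.18 for all genes. Of the LPS-lowered genes 34 were higher (12.2%) and 55 lower (19.8%), with a median of -0.29. Over DMSO, 61 LPS-raised genes were higher and 228 lower in Halofuginone wells, and 60 higher and 126 lower in Torin wells. The DMSO wells enter both sides of these last counts, so they describe levels and are no test.

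Cytokine genes were split. Of 31 tested inflammatory cytokine and enzyme genes 11 were higher in Halofuginone wells (35.5%, against 13.5% of all genes). Another 7 were lower (22.6%, against 23.2% of all genes). On plate 2 alone 6 were higher. Tnf, the early cytokine tumour necrosis factor, had 1465 to 4211 CPM (median 2374) in Halofuginone wells, against 754 to 1054 CPM (median 901) in Torin wells. Medians were 1120.0 CPM in DMSO wells and 139 CPM in NoStim wells. All Halofuginone wells were above all Torin wells (log2 fold change 1.45 ± 0.13, adjusted p = 2.34e-18). Csf1, the macrophage growth factor, was higher with overlap (1.70 ± 0.23). Il23a, a subunit of interleukin 23, had the highest log2 fold change of the list (3.17, and 4.01 without Torin plate 2 F). It had 14.6 to 78.0 CPM in Halofuginone wells, against 0 to 21.3 CPM in Torin wells, with overlap. In the other direction, Il12b, a subunit of interleukins 12 and 23, had 51.1 to 133 CPM (median 79.1) in Halofuginone wells, against 199 to 306 CPM (median 235) in Torin wells (log2 fold change -1.52 ± 0.24, adjusted p = 7.57e-08). Tnfsf15, a cytokine of the tumour necrosis factor family, had 0 to 32.5 CPM (median 17.1) in Halofuginone wells, against 188 to 329.7 CPM (median 255) in Torin wells, without overlap (log2 fold change -3.79 ± 0.33, adjusted p = 7.37e-20).

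Il10, the anti-inflammatory cytokine, had 13.3 to 140.4 CPM (median 44.97) in Halofuginone wells, against 129 to 193 CPM (median 166) in Torin wells, and the wells overlapped slightly (log2 fold change -1.52 ± 0.30, adjusted p = 1.72e-05). Its median was 38.2 CPM in DMSO wells, and its values over DMSO were 0.60 ± 0.36 in Halofuginone wells and 2.12 ± 0.24 in Torin wells. Il1b, the precursor of interleukin 1 beta, had 289.6 to 705 CPM (median 535) in Halofuginone wells, against 606 to 813 CPM (median 716) in Torin wells, and 2414 CPM was the median of DMSO wells. The difference between compounds passed (log2 fold change -0.50 ± 0.16, adjusted p = 0.00864), but not on either plate alone, nor with the 16 libraries alone (-0.29, adjusted p = 0.0949). Over DMSO it was -2.32 ± 0.15 in Halofuginone wells and -1.82 ± 0.14 in Torin wells. Il6 had 6 counts over all Halofuginone libraries and 39 over all Torin libraries and did not pass (log2 fold change -1.07 ± 0.58, adjusted p = 0.140). It passed without Halofuginone plate 1 F (-1.76, adjusted p = 0.0451) and on plate 2 alone (-5.65, adjusted p = 0.0118), but not on plate 1 alone (-0.14, adjusted p = 0.912). The term for a difference between plates did not pass for Il6 (adjusted p = 0.555 in edgeR's quasi-likelihood test).

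Chemokine genes were split as well. Of 21 tested 8 were higher (38.1%, against 13.5% of all genes) and 6 lower (28.6%, against 23.2% of all genes). On plate 1 alone 3 were lower. Cxcl2, a neutrophil attractant, had 3897 to 11900.5 CPM (median 4688) in Halofuginone wells, against 1118 to 1472 CPM (median 1193) in Torin wells, and the median of DMSO wells was 1046 CPM. All Halofuginone wells were above all Torin wells (log2 fold change 2.24 ± 0.20, adjusted p = 4.43e-17). Its relatives Cxcl1 (2.11 ± 0.20) and Cxcl3 (2.18 ± 0.39) were higher with overlap of the wells. Ccl5, which attracts T cells, had 375 to 1653 CPM (median 800.0) in Halofuginone wells, against 1774 to 3366 CPM (median 2177) in Torin wells, and the groups did not overlap (log2 fold change -1.44 ± 0.19, adjusted p = 1.49e-09). Ccl7, a monocyte attractant, had 102 to 319.8 CPM (median 226) in Halofuginone wells, against 549 to 857 CPM (median 778) in Torin wells (log2 fold change -1.74 ± 0.21, adjusted p = 5.69e-11). Ccl4 was lower with overlap (-0.73 ± 0.13), and Ccl2 did not pass (log2 fold change 0.22 ± 0.17, adjusted p = 0.324).

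Of 40 genes of NF-kB and cytokine feedback 13 were higher (32.5%, against 13.5% of all genes). Another 7 were lower (17.5%, against 23.2% of all genes), with 7 higher and 4 lower on plate 2 alone. In 9 of the 40 all Halofuginone wells lay above all Torin wells, which held for 2.24% of all genes. Zfp36, which speeds decay of cytokine mRNAs, had 579 to 1731 CPM (median 1160.0) in Halofuginone wells, against 244 to 435 CPM (median 314) in Torin wells (log2 fold change 1.95 ± 0.15, adjusted p = 2.49e-24). Dusp1, a phosphatase of MAP kinases, had 615 to 1025 CPM (median 733) in Halofuginone wells, against 202 to 305 CPM (median 238) in Torin wells (log2 fold change 1.68 ± 0.16, adjusted p = 2.46e-17). Ier3 (2.47 ± 0.24, 3.35 when thinned), a survival gene, Nfkbid (2.45 ± 0.33) and Nfkbiz (1.31 ± 0.17), nuclear partners of NF-kB, were higher without overlap as well. Nfkbia, the classical inhibitor of NF-kB, had 5844 to 13460.2 CPM (median 8067) in Halofuginone wells, against 6920.4 to 9272 CPM (median 8294) in Torin wells, and the wells overlapped (log2 fold change 0.06 ± 0.10, adjusted p = 0.676). Socs3, an inhibitor of cytokine receptors, had 103 to 328 CPM (median 194) in Halofuginone wells, against 345 to 587 CPM (median 446) in Torin wells, without overlap (log2 fold change -1.12 ± 0.18, adjusted p = 1.31e-07). Bcl3, a nuclear partner of NF-kB, was also lower, with slight overlap (-2.50 ± 0.42).

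Interferon-response genes stood in both directions. Of 74 tested 11 were higher (14.9%, against 13.5% of all genes) and 26 lower (35.1%, against 23.2% of all genes), with a median of -0.31. There were 5 higher and 15 lower on plate 2 alone. In 12 of the 74 all Halofuginone wells lay below all Torin wells, which held for 6.29% of all genes. Irf8, a transcription factor of macrophages and the interferon response on chromosome 8 (120736358 to 120756694 of mm10), had 31.2 to 73.2 CPM (median 61.2) in Halofuginone wells, against 463 to 653 CPM (median 510.0) in Torin wells. Medians were 508 CPM in DMSO wells and 273 CPM in NoStim wells. It was the lowest of the list (log2 fold change -3.23 ± 0.21, adjusted p = 7.53e-29). Rsad2, the antiviral enzyme viperin, had 2971 to 4506 CPM (median 3735) in Halofuginone wells, against 15188 to 20193 CPM (median 16617) in Torin wells, and no wells overlapped (log2 fold change -2.19 ± 0.19, adjusted p = 2.49e-17). Ifi205 (-2.04 ± 0.18) and Ifi203 (-1.87 ± 0.17), DNA sensors of a family with near-identical copies, Gbp7 (-1.57 ± 0.19), a guanylate-binding protein, and Tap1 (-1.65 ± 0.34), a peptide transporter, were lower too.

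Other interferon genes did not pass or were higher. Ifit1, an inhibitor of viral translation, had 1227 to 1642 CPM (median 1555) in Halofuginone wells, against 1387 to 1631 CPM (median 1503) in Torin wells, and Isg15, a ubiquitin-like modifier, had 358 to 889 CPM (median 569) in Halofuginone wells, against 481 to 708 CPM (median 640.4) in Torin wells. Neither passed (adjusted p = 0.995 and 0.978 in edgeR's quasi-likelihood test), and over DMSO Ifit1 was at -0.68 ± 0.15 in Halofuginone wells and -0.68 ± 0.14 in Torin wells. The RNA sensors Ifih1 and Ddx58 were higher without overlap. Ifih1 had 666 to 1232 CPM (median 1008) in Halofuginone wells, against 312 to 446 CPM (median 356) in Torin wells (log2 fold change 1.35 ± 0.16, adjusted p = 1.13e-11), and Ddx58 was at 1.31 ± 0.25. Over DMSO, 4 of the 74 were higher and 42 lower in Halofuginone wells, and 1 higher and 29 lower in Torin wells.

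Macrophage identity genes moved both ways. Of 32 tested 6 were higher (18.8%, against 13.5% of all genes) and 10 lower (31.2%, against 23.2% of all genes). Without Halofuginone plate 2 E 3 were higher. Cebpa, a myeloid transcription factor, was higher with overlap (1.40 ± 0.31). Fcgr3, an antibody receptor, had 0 to 77.98 CPM (median 52.5) in Halofuginone wells, against 124 to 273 CPM (median 201) in Torin wells (log2 fold change -2.10 ± 0.24, adjusted p = 2.14e-13), and Cd14, the coreceptor for LPS, had 86.00 to 244 CPM (median 186) in Halofuginone wells, against 333 to 426 CPM (median 378) in Torin wells (log2 fold change -1.10 ± 0.18, adjusted p = 8.27e-08). Lgals3, the lectin galectin 3, was lower without overlap (-1.08 ± 0.11).

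Stress lists had members in both directions, while of all genes 13.5% were higher and 23.2% lower. The heat shock list had 2 higher (11.8%) and 3 lower (17.6%) of 17, both under those shares, with 4 higher without Torin plate 2 F. The 2 were the near-identical genes Hspa1a (2.88 ± 0.38) and Hspa1b (1.99 ± 0.37), between which reads may be split. The list of p53 and apoptosis had 5 higher (27.8%) and 6 lower (33.3%) of 18. Bbc3, which encodes the death inducer PUMA, had 51.1 to 172 CPM (median 94.7) in Halofuginone wells, against 0 to 37.7 CPM (median 11.7) in Torin wells (log2 fold change 2.75 ± 0.37, adjusted p = 1.60e-10). The list of NRF2, heme and iron had 3 higher (14.3%) and 7 lower (33.3%) of 21, with 4 lower without any 1 of Torin plate 1 E or 1 H or Halofuginone plate 1 F or 2 F. The ferritin genes Fth1 and Ftl1, whose proteins store iron, were lower without overlap. Fth1 had 3663 to 7129 CPM (median 6415) in Halofuginone wells, against 10534 to 15686 CPM (median 13154) in Torin wells (log2 fold change -1.13 ± 0.10, adjusted p = 5.63e-19), and Ftl1 was at -1.08 ± 0.11. In the list of glycolysis and hypoxia, with 4 higher (16%) and 3 lower (12%) of 25, the glucose transporter gene Slc2a1 was higher (1.77 ± 0.29) and the hexokinase gene Hk2 lower (-1.30 ± 0.17).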

How the data were processed

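The deposited table holds raw counts per gene symbol, which the authors made from 3′ end libraries aligned with BWA to mm10, per the submitters' processing notes. The aligner version, the annotation and collapsing of molecular tags were not given in the sources used here. Of 23481 symbols 4963 passed edgeR's expression filter. All 96 libraries were fitted with edgeR 4.0.16 in R 4.3.3 (TMM scaling, quasi-likelihood test, group plus plate), and p-values were adjusted by Benjamini-Hochberg over all genes tested. Library measures were compared with exact permutation tests in SciPy 1.17.1. DESeq2 1.42.0, RLE scaling, other filters, single plates, thinned counts, libraries left out and a replicate block were tried as alternatives.

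Genes were named by a rule: the 15 highest and 15 lowest past the threshold with equal signs on plates 1 and 2 and 30 CPM or more in either group, from each gene list the first 3 tested and up to 6 with the largest changes, and the 10 highest and 10 lowest LPS-raised genes. Junb, Jund, Id3, Id2, Klf4, Atf3, Rpl4, Eif4a1, Psmb7, Rpph1 and Malat1 were named after their values were seen. So were Mir703, Mir22hg, Gdf15, Slc38a2, Il10, Nfkbiz, Gbp7, Ifih1 and Ddx58. Members, lists and genes were chosen with earlier results of these data known. The script was tested on simulated counts for this comparison, where 34 of 70 genes changed 2-fold and 61 of 68 changed 4-fold were recovered. Apart from the changed genes, all simulated libraries had the same gene rates and a fixed spread. Simulated Halofuginone libraries thus lacked their higher Rn45s share, and recovery in the real libraries may differ. Intervals cover counting error only.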

Additional observations from a re-analysis of the deposited data

Results flagged for a closer look

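In 12 of 228 groups of 8 libraries, over 5 library measures and the genes named other than Il23a, 1 library stood far from the other 7 by Dixon's criterion. Chance flags about 1 in 20 groups. In Halofuginone wells, plate 1 G was far above the others for Cxcl2 (11901 CPM, others 3897 to 7009 CPM) and for Cxcl1 (1700.1 CPM, others 153 to 706 CPM). Plate 2 E was high for Eif3h (117 CPM, others 15.6 to 51.6 CPM), and plate 2 G for Rpph1 (2285 CPM, others 749 to 1245 CPM) and Tsc2 (206.7 CPM, others 51.2 to 120.4 CPM). Plate 1 F held the single Ppargc1b count (12.8 CPM, others 0), and plate 1 E the single Mir682 count (16.3 CPM, others 0). In Torin wells, Btg2 was high in plate 2 F (63.9 CPM, others 10.8 to 28.2 CPM) and Klf4 in plate 2 H (89.2 CPM, others 34.1 to 59.2 CPM). Eef1a1 was high in plate 1 H (1967 CPM, others 1404 to 1641 CPM) and Atp6v1a in plate 2 G (2438 CPM, others 1906 to 2143 CPM). Ccl7 was low in Torin plate 1 F (549 CPM, others 732 to 857 CPM). For none of these genes did leaving out the library change the call.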

How the results depend on the processing

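Of the 1820 genes called, 1711 were also called with RLE scaling, and DESeq2 called 772 higher and 966 lower. The 16 libraries alone gave 989 calls among 1709 genes tested (468 lower), plate 1 alone 1076 (362 higher, 714 lower), plate 2 alone 1108 (353 higher, 755 lower) and thinning to one depth 1200 (709 lower). Leaving out single libraries gave 1652 to 1822 calls, 619 to 753 higher and 1018 to 1129 lower. With the replicate block, fitted without NoStim, 1803 genes were called (687 higher, 1116 lower), and no named gene lost its call. Same-numbered wells of the compounds correlated over 0.1 in 1 of 8 pairs. For 5 of the 8 Halofuginone wells the best match among Torin wells of the plate was the same-numbered one. Whether the numbers pair the samples is therefore not settled. Summing same-named wells of both plates gave 1846 calls among 6947 genes tested, of which 1647 were shared with the 1820. In that fit 7 of the 185 named genes called lost the call. Without scaling factors, an alternative chosen after seeing the data, 845 were higher and 947 lower. LPS-raised genes that were higher numbered 84, and 42 with no filter, 52 on plate 1, 48 on plate 2 and 80 to 90 with a library left out. LPS-raised genes that were lower numbered 94 in the 16 libraries alone and 166 to 182 with a library left out. LPS-lowered genes that were higher numbered 19 with no filter, 17 in the 16 libraries alone, 20 on plate 2 and 22 when thinned (32 to 40 with a library left out). LPS-lowered genes that were lower numbered 13 in the 16 libraries alone, 31 on each plate and 31 when thinned (46 to 55 with a library left out). The cause of these changes was not tested, though single plates, thinning and the 16 libraries alone use fewer samples, counts or genes. No named gene that was called changed sign under any alternative. With no filter 17 of the named genes called lost the call, all of them genes that were higher. Lamp1, Eef1a1 and Rpl4 also passed as lower in that fit. Fold changes moved down there, as for Atf4 from 0.60 to 0.32 and for Rpl4 from -0.20 to -0.49. The low depth of Halofuginone libraries limits genes with few counts.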

Other observations

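Extracellular matrix and cytoskeleton genes moved both ways. Of 15 tested genes of collagen and matrix 3 were higher (20%, against 13.5% of all genes) and 4 lower (26.7%, against 23.2% of all genes) in Halofuginone than in Torin wells. Thbs1, the adhesive glycoprotein thrombospondin 1, had 68.8 to 249 CPM (median 117) in Halofuginone wells, against 14.99 to 56.3 CPM (median 27.9) in Torin wells, without overlap (log2 fold change 2.00 ± 0.31, adjusted p = 4.18e-08 in edgeR's quasi-likelihood test). Vim, the intermediate filament protein vimentin, had 239 to 650.5 CPM (median 371) in Halofuginone wells, against 764 to 986 CPM (median 947) in Torin wells, also without overlap (log2 fold change -1.21 ± 0.13, adjusted p = 1.96e-14). Timp2, an inhibitor of matrix metalloproteases, was lower without overlap (-0.88 ± 0.15).

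Of 17 cell cycle genes 2 were higher (11.8%, against 13.5% of all genes) and 5 lower (29.4%, against 23.2% of all genes). Ccnd2, the cyclin of the first gap phase, had 221 to 464 CPM (median 324) in Halofuginone wells, against 565 to 794 CPM (median 649) in Torin wells, and the groups did not overlap (log2 fold change -0.98 ± 0.16, adjusted p = 1.23e-07). Of 18 genes of the mTOR complexes, PI3K and FOXO feedback 3 were higher (16.7%) and 1 lower (5.56%). None was lower without any 1 of Torin plate 1 E or 2 F or Halofuginone plate 1 F or 2 G, 2 were lower without Halofuginone plate 1 H or 2 F, and 5 were higher without Halofuginone plate 2 F. Tsc2, which holds back mTOR complex 1, had 51.2 to 207 CPM (median 107) in Halofuginone wells, against 15.5 to 70.5 CPM (median 34.6) in Torin wells, with overlap (log2 fold change 1.57 ± 0.32, adjusted p = 2.82e-05).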
